A study of Mus musculus with 2 samples.

Results

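The genes described here are 8 genes of Schwann cells and nerve, *Mbp*, *Pmp22*, *Sox10*, *S100b*, *Gap43*, *Uchl1*, *Prph* and *Nefl*, taken by gene symbol from the 18498 rows of an expression table of mouse tongue. Each of the 8 symbols had 1 row. The table compares the circumvallate papillae (CvP), the taste papillae of the posterior tongue that the glossopharyngeal nerve supplies, with the tongue epithelium without papillae (Epi). Both groups were C57BL/6J mice, 12 to 30 weeks old. The paper gives male sex for the mice of its RT-PCR and a normal chow diet for its mice in general. No genetic change or treatment is given for either group. RNA of at least 20 mice was pooled for each tissue, and 1 poly(A) RNA library was sequenced from each pool, so replicates were absent and no p-value was calculated. The values are RPKM, read densities corrected for exon length and for the mapped reads of the library, and levels can be compared between genes as far as the listed gene lengths hold.

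A peripheral nerve in the tongue consists of axons and of the Schwann cells that wrap them. Schwann cells descend from the neural crest, are specified by the transcription factor Sox10 and, where they myelinate, make large amounts of the myelin proteins Mbp and Pmp22. The cell bodies of the gustatory axons of the CvP lie outside the tongue, in the petrosal ganglion, while small parasympathetic ganglia lie within the tongue. Taste buds hold type I cells, which are glia-like, type II cells, which detect sweet, umami and bitter substances, and type III cells, which respond to sour and form synapses with the nerve. Type III cells share several proteins with neurons, among them Uchl1, also known as PGP9.5, Snap25 and Ncam1.

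The 8 genes did not move together. *Uchl1* and *Nefl* were present in the CvP and listed at 0 in the Epi, *Pmp22* was 4.0-fold higher in the CvP, and *Mbp* was at nearly the same level in both tissues. The Schwann cell genes *Sox10* and *S100b* and the neuronal genes *Prph* and *Gap43* were below an RPKM of 1 in both libraries. In the CvP the order of levels was *Uchl1* (15), *Mbp* (10.3), *Pmp22* (3.68), *Nefl* (2.32), *Sox10* (0.18), *S100b* (0.13), *Prph* (0.02) and *Gap43* (0). The counting intervals of the 4 highest genes did not overlap one another, whereas those of *Sox10* and *S100b* overlapped, as did those of *S100b* and *Prph*, so the order among the low genes could not be told at this depth. The order of *Uchl1* and *Mbp* holds for the listed lengths only, since with the same reads divided by the longest coding transcript, an alternative chosen after the values were seen, *Mbp* was at 30.9 and *Uchl1* at 22.1 in the CvP.

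**Figure D1:**
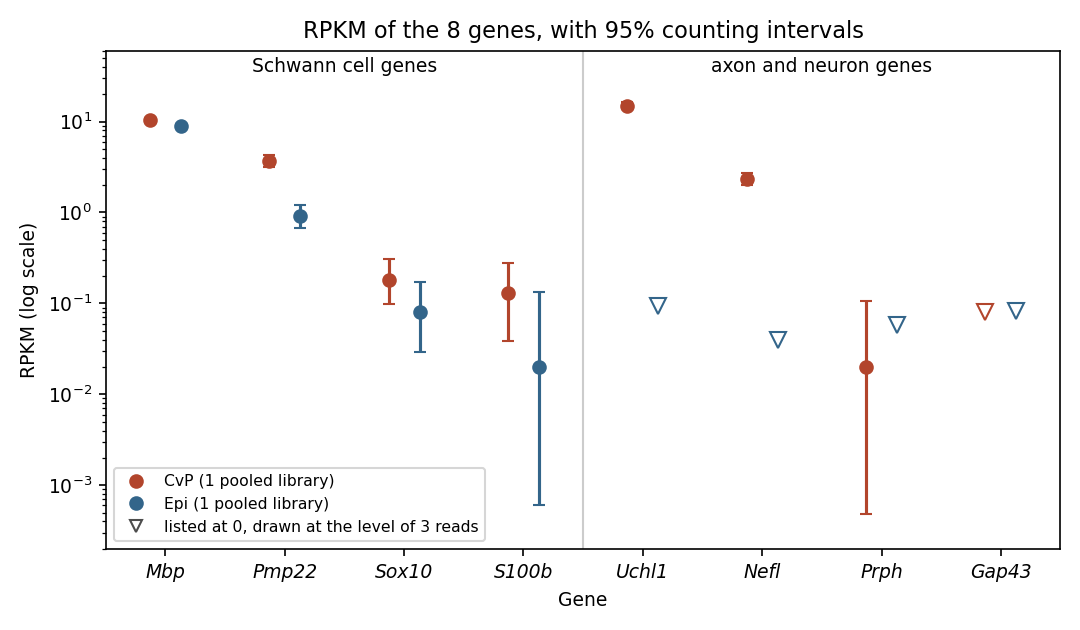
RPKM of the 8 genes on a log axis, CvP in red and Epi in blue, 1 pooled library each. Bars are 95% exact Poisson intervals of the estimated reads and cover counting error only, and open triangles mark genes listed at 0, drawn at the RPKM that 3 reads would give. *Uchl1* and *Nefl* have a CvP point far above the Epi triangle, *Mbp* has points of 10.3 and 8.94 side by side, and *Sox10*, *S100b*, *Prph* and *Gap43* stay below 1.

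The depth behind these values was read from the table itself. In 163 rows of 0.1 kb neighbouring low values differed by 0.352 (CvP) and 0.358 (Epi), the worth of 1 read, which gave about 28375281 and 27908511 mapped reads. From these depths the reads of each gene were estimated, and exact (Clopper-Pearson) intervals at 95% were set around the ratios. For a gene listed at 0 in the Epi, the ratio was calculated against 3 reads, the number that a count of 0 allows with a one-sided limit, and is given as a lower bound. The lower limits of the exact two-sided intervals lie below these bounds. Over the 10363 rows with an RPKM of at least 1 in both libraries the median ratio was 1.31, a log2 shift of 0.39, against which single ratios can be read. The RPKM summed over all rows went the other way, with 341141 in the CvP against 411512 in the Epi. RPKM are shares of a library, so the median does not show that genes in general were higher in the CvP.

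With a CvP/Epi ratio above 3 and at least 1 RPKM in either tissue, 3 of the 8 genes were higher in the CvP (*Uchl1*, *Nefl* and *Pmp22*), and 0 were higher in the Epi by the same rule. Over all 12549 rows with that minimum, 15.9% passed on the CvP side and 1.96% on the Epi side. By count these were 1998 and 246 rows (89.0% of them on the CvP side), and after division by the median ratio the split was 1363 and 382 (78.1%). The criteria of the study, a CvP RPKM above 10 and a ratio above 3, were met by 1 of the 8 genes, *Uchl1*, and by 2.35% of all rows analysed here. *Mbp* passed the minimum but not the ratio. An Epi value of 0 together with a CvP RPKM of at least 1 was found for *Uchl1* and *Nefl*, and for 1.71% of the 12549 rows. The median of log2((CvP + 0.1)/(Epi + 0.1)) over all 8 genes was 0.79, unchanged with *Uchl1* and *Nefl* at their lower bounds. It fell between *Sox10* (0.64) and *S100b* (0.94), so it rests on genes with few reads. The 12549 rows, which all passed the minimum, had a median of 0.51. Among the 8 genes, the 4 that passed it had a median of 3.24. Of these 4, *Pmp22*, *Uchl1* and *Nefl* reached the minimum in the CvP only, so the filter itself favoured a high median. The pseudocount of 0.1 understates the change of low genes.

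*Sox10*, the gene of the factor that specifies the Schwann cell lineage and that is also made by melanocytes and cells of salivary glands, was barely detected. Its RPKM was 0.18 in the CvP against 0.08 in the Epi, some 14 and 6 reads. The ratio of 2.25 had an interval from 0.829 to 7.29, and a difference was not detectable with so few reads. *S100b*, a calcium-binding protein of Schwann cells and other glia that some dendritic cells and melanocytes also make, had an RPKM of 0.13 in the CvP against 0.02 in the Epi. These values corresponded to about 5 reads and 1 read (6 and 1 with the listed gene length), and the ratio of 6.50 had an interval from 0.550 to 233. Both genes were thus at the edge of detection in both tissues.

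*Pmp22* encodes a compact-myelin protein of Schwann cells that epithelial cells and fibroblasts make as well. Its RPKM was 3.68 in the CvP against 0.92 in the Epi, some 188 and 46 reads. The ratio of 4.0 had an interval from 2.90 to 5.68, which reaches below 3, and divided by the median ratio it was 3.05. With a pseudocount of 1 it was 2.44.

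*Mbp* encodes myelin basic protein, and its locus also gives the longer Golli transcripts, which start upstream and are made outside myelin, for example in lymphoid cells. It had the highest Epi level of the 8 genes. Its RPKM was 10.3 in the CvP (interval 9.76 to 10.8) and 8.94 in the Epi (8.44 to 9.46). The ratio was 1.15 (1.06 to 1.25) as deposited, and its direction depended on scaling, since it was 0.877 after division by the median ratio. The row of *Mbp* was listed with 14.4 kb, 1.71 times the 8403 bases covered by the exons of its 16 annotated transcripts, and the table gives 1 row for the whole locus. Golli and myelin transcripts could therefore not be separated, and the level of either one is uncertain.

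Across the other myelin genes the levels were likewise uneven. Of 12 listed genes, all with a row, 4 reached an RPKM of 1 in either library, and these 4 (*Mal*, *Pllp*, *Ugt8a* and *Cnp*) were all more than 3-fold higher in the CvP. *Mal*, which encodes a raft-associated membrane protein of myelin and of many epithelia, had an RPKM of 216 in the CvP against 5.74 in the Epi (ratio 37.6, interval 34.2 to 41.4). *Pllp* (plasmolipin, also found in epithelia) had values of 17.4 and 0.59 (ratio 29.4, interval 20.7 to 43.7). *Ugt8a*, the enzyme that makes galactosylceramide, had 6.89 and 0.07 (ratio 98.4, interval 47.5 to 245). *Cnp* had 3.91 and 0.40 (ratio 9.78, interval 6.61 to 15.5). These 4 genes are those of the list with the highest mean level, and each is made outside myelin too.

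The other 8 genes of the list were below an RPKM of 1 in both libraries. *Prx*, which encodes periaxin, a protein of myelinating Schwann cells, had an RPKM of 0.66 in the CvP against 0.28 in the Epi (ratio 2.36, interval 1.64 to 3.51). *Egr2*, a transcription factor of myelinating Schwann cells, had 0.35 and 0.05 (ratio 7.0, interval 2.50 to 27.9), and *Fa2h*, a fatty acid hydroxylase, had 0.51 and 0, at least 11.8-fold higher. *Gjb1* had 0.42 and 0.40, and *Mag*, *Pmp2*, *Drp2* and *Cldn19* had at most 4 reads in either library. The median log2 ratio over the 12 genes was 1.29. The summed RPKM of the list was 246 in the CvP against 7.63 in the Epi, and without *Mal*, an omission chosen after the values were seen, 30.2 and 1.89.

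Of the genes of the Schwann lineage and of non-myelinating Schwann cells, 10 of 13 had a row, and *Cdh19*, *Foxd3* and *Gfra3* were not analysed here. Of these 10 genes, 7 reached an RPKM of 1, of which 2 were more than 3-fold higher in the CvP and 5 within 3-fold. *Erbb3*, the neuregulin receptor of Schwann cells and of epithelia, had the highest level, 40.2 in the CvP against 27.0 in the Epi (ratio 1.49, interval 1.43 to 1.54). *L1cam*, an adhesion molecule of axons and Schwann cells, had 16.9 and 10.7, and *Matn2*, a matrix protein, had 9.83 and 5.60. *Ngfr*, the p75 neurotrophin receptor, had 5.47 and 1.94 (ratio 2.82, interval 2.38 to 3.36). *Pou3f1*, a transcription factor of promyelinating Schwann cells and of keratinocytes, had 1.44 and 1.21. All 5 of these genes were above 1 in the Epi. *Sox10* had about 6 reads there, and which cells gave the levels of the 5 genes was not tested.

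The genes of the list more than 3-fold higher in the CvP were both adhesion molecules. *Ncam1*, which is in the list of type III taste cells as well, had an RPKM of 1.39 in the CvP against 0 in the Epi, at least 85.3-fold higher, and *Cdh2* (N-cadherin) had 2.34 and 0.01. Of the lineage genes at the other end, *Gfap* had an RPKM of 0.15 in the CvP against 0.03 in the Epi, *Fabp7* had 0.32 and 0, and *Scn7a* had 0 and 0.01. The median log2 ratio over the 10 genes was 0.87.

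**Figure D2:**
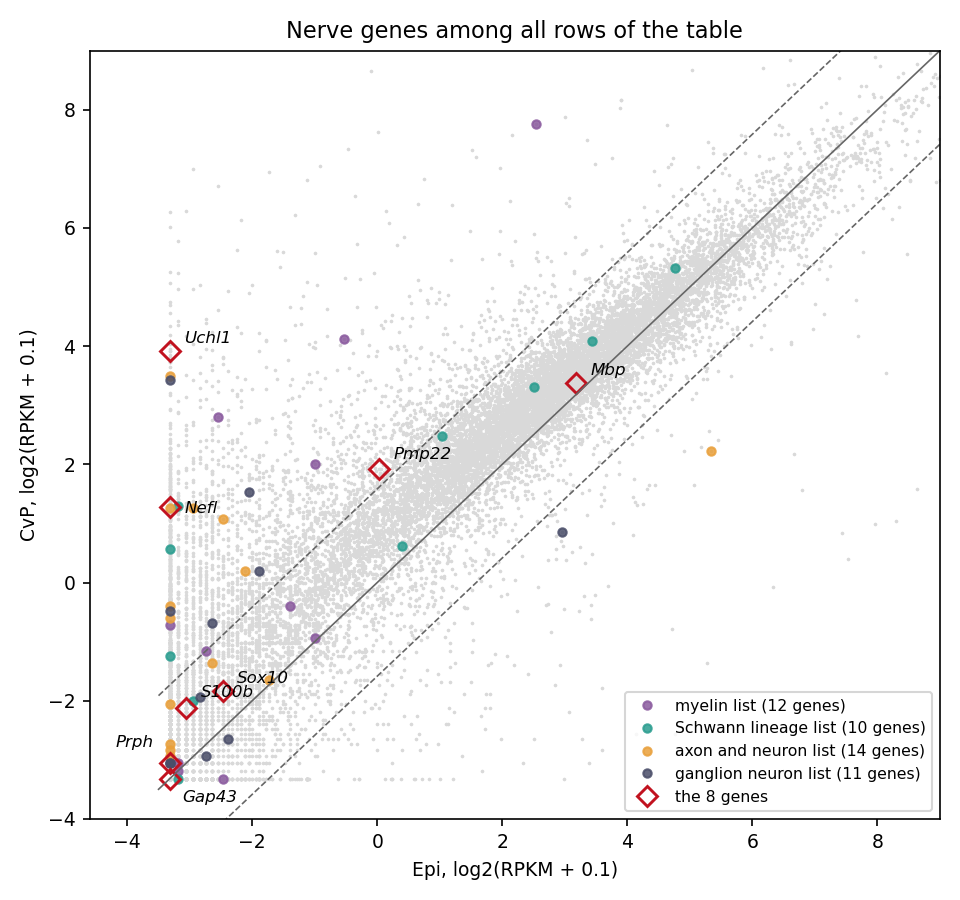
CvP against Epi level as log2(RPKM + 0.1) for all rows (grey; the highest rows lie beyond the axes), 4 lists of nerve genes (filled circles) and the 8 genes (red diamonds). The solid line marks equal levels and the dashed lines a ratio of 3 either way. *Mbp* lies among the bulk of genes near the solid line, *Pmp22* just above the upper dashed line, and *Uchl1* and *Nefl* on the column of rows with an Epi value of 0.

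*Uchl1* encodes a ubiquitin hydrolase that is abundant in neurons and whose protein is a standard marker of nerve fibres and of type III taste cells. Its RPKM was 15 in the CvP, about 488 reads, with an interval from 13.7 to 16.4. The Epi value was 0, which allows up to 0.0938 at this depth, so *Uchl1* was at least 160-fold higher in the CvP by the 3-read floor (lower limit of the exact interval 130). Its CvP level exceeded those of 79.0% of all rows and was the highest of the 8 genes on the listed lengths. An antisense non-coding gene, *Gm16832*, shares 214 exon bases with *Uchl1*. Neither the kit nor the counting was stated to use strand, so reads of this gene and of *Uchl1* could not be told apart there.

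*Nefl*, the light chain of the neurofilaments of axons, had an RPKM of 2.32 in the CvP (interval 1.99 to 2.69), about 177 reads, and 0 in the Epi, which allows up to 0.0400. It was at least 58.0-fold higher in the CvP by that floor (lower limit of the exact interval 46.7), whereas with a pseudocount of 0.1 the ratio was 24.2. The other subunits that form filaments with it were much lower. *Nefm*, the medium chain, had an RPKM of 0.05 in the CvP, about 5 reads, and *Nefh*, the heavy chain, had 0.29, about 33 reads. *Ina* (internexin) had 0.56. In the Epi *Nefm* and *Ina* were listed at 0 and *Nefh* had 0.06. In the GENCODE M1 annotation, 1087 bases of the *Nefl* row are also exon of *Nefm* on the opposite strand, so that reads of the 2 genes could be mixed.

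*Prph* encodes peripherin, an intermediate filament of neurons of the peripheral nervous system. Its RPKM was 0.02 in the CvP, about 1 read, and 0 in the Epi, and no fold was calculated. *Gap43*, a protein of growth cones and regenerating axons that Schwann cells can make too, was listed at 0 in both libraries, which allows up to 0.0813 in the CvP against 0.0826 in the Epi. *Gap43* shared these values with 456 other symbols, and *Prph* shared its values with 216. Within the CvP library, *Uchl1* and *Nefl* were thus read from 488 and 177 reads and *Prph* and *Gap43* from 1 and 0.

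The 5' ends of *Uchl1* and *Prph* are shown because, of these neuronal genes, *Uchl1* had the highest CvP level of the 8 and *Prph* only 1 read. RefSeq promoter windows of build GRCm38.p6, which is not the build of the expression table, were matched for 4 of the 8 genes (*Uchl1*, *Prph*, *S100b* and *Pmp22*), the last with 4 alternative starts that the single RPKM row does not separate. Each window runs from 250 bases before the start to 50 bases after it, 5′ to 3′ along the plus strand, and capitals mark the TATA box TATAAA.
Uchl1, chr5:66675871-66676170: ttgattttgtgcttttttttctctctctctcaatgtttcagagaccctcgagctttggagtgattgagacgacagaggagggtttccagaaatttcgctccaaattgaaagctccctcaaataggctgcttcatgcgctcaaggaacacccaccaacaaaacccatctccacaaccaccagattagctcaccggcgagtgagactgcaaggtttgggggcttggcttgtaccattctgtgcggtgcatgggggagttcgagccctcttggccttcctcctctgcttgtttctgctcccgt
Prph, chr15:99054924-99055223: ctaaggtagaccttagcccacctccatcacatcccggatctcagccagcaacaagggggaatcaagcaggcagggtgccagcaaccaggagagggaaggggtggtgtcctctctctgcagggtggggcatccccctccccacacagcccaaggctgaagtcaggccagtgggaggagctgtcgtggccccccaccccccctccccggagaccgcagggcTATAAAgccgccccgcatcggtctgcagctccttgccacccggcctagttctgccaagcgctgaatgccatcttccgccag
The *Prph* window held 1 TATA box, which begins at position -31 from the start, and the *Uchl1* window held 0. On both strands TATAAA was found in 13.6% of 32851 windows of the same length. The E-box CAGCTG and the Sox core ACAAAG, of which neither contains another of these motifs, were searched on both strands too and were found in neither window, against 16.3% and 18.7% of all windows. The windows were alike in their CG dinucleotides, with 9 in *Uchl1* and 10 in *Prph*, against a median of 7 over all windows. These matches describe letters only.

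Among 17 listed genes of axons and neurons, 14 had a row (*Map1b*, *Map2* and *Scn10a* were not analysed here) and 6 reached an RPKM of 1. Of these 6, *Snap25*, *Syt1*, *Stmn3*, *Syp* and *Mapt* were more than 3-fold higher in the CvP and *Tubb3* was more than 3-fold higher in the Epi. *Snap25*, a protein of the vesicle fusion complex that type III cells also make, had an RPKM of 11.1 in the CvP against 0 in the Epi, at least 219-fold higher. *Syt1*, a calcium sensor of synaptic vesicles, had 2.31 and 0.03 (ratio 77.0) with about 4 Epi reads behind it. *Stmn3*, a regulator of microtubules, had 2.30 and 0, at least 24.3-fold higher, and *Syp* (synaptophysin) had 2.0 and 0.08. These are genes of vesicles and microtubules, and their CvP levels were of the order of that of *Nefl*, apart from *Snap25*. On the listed lengths *Snap25* (interval 10.3 to 12) was below *Uchl1* (15, interval 13.7 to 16.4). Its row was listed much longer than its longest coding transcript, with 3832 estimated CvP reads by the listed length and 667 by the transcript.

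*Tubb3*, a neuronal beta-tubulin, went the other way, with an RPKM of 4.58 in the CvP against 40.4 in the Epi (ratio 0.114, interval 0.0984 to 0.13). *Stmn2*, a growth-associated protein of neurons, had about 2 reads in the CvP, and *Rbfox3*, which encodes the nuclear marker NeuN, about 3. The neuronal RNA-binding proteins *Elavl3* and *Elavl4* had an RPKM of 0.14 and 0.66 in the CvP against 0 in the Epi. The median log2 ratio over the 14 genes was 1.80, and 2.51 with the genes at 0 in the Epi set to their lower bounds. *Tubb3* alone gave 40.4 of the summed Epi RPKM of 40.9.

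Genes of ganglion neurons are of interest because neuron cell bodies within the sample would bring them. Of 15 listed genes 11 had a row, and *Tlx3*, *Tac1*, *Vip* and *Hand2* were not analysed here. *Calca*, the gene of calcitonin and CGRP, had an RPKM of 10.7 in the CvP against 0 in the Epi, at least 98.5-fold higher. *Ret*, the receptor subunit for GDNF ligands, had 2.79 and 0.14 (ratio 19.9, interval 13.6 to 29.7), and *P2rx2*, an ATP receptor of gustatory nerve fibres, had 1.05 and 0.17 (ratio 6.18, interval 3.06 to 14.3). *Ntrk2*, which encodes the BDNF receptor TrkB, was higher in the Epi, at 1.70 and 7.64 (ratio 0.223, interval 0.199 to 0.248). *Chat*, the acetylcholine-synthesizing enzyme, had 0.62 and 0.

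The transcription factors of these neurons that had a row were at the edge of detection. *Phox2a* had an RPKM of 0.06 in the CvP against 0.09 in the Epi, and *Isl1* had 0.03 and 0.05. *Th*, the enzyme of catecholamine synthesis, had 0.52 and 0.06, some 26 and 3 reads (ratio 8.67, interval 2.61 to 44). *Slc18a3*, the vesicular acetylcholine transporter, and *Dbh*, the noradrenaline-synthesizing enzyme, each had about 1 read in the CvP against 0 in the Epi. The median log2 ratio over the 11 genes was 0.89, and for 8 genes the CvP value exceeded the Epi value. The summed RPKM was 17.65 in the CvP against 8.19 in the Epi. Without *Calca*, left out after the values were seen, it was 6.97 in the CvP against 8.19 in the Epi. *Ntrk2* alone gave 7.64 of the Epi sum, so the sums rest on single genes.

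Most markers of type II and type III taste cells were, like *Uchl1* and *Nefl*, more than 3-fold higher in the CvP. All 8 listed type III genes were more than 3-fold higher in the CvP, and 5 of them, *Pkd2l1*, *Ddc*, *Otop1*, *Ncam1* and *Snap25*, were listed at 0 in the Epi. *Pkd1l3* (47.6 and 0.40) and *Otop1* (20.1 and 0), a channel subunit and the proton channel of sour-sensing cells, had the highest CvP levels. The summed RPKM of the list was 116 in the CvP against 1.04 in the Epi, and the median log2 ratio 6.42 (6.84 with the genes at 0 in the Epi set to their lower bounds). *Uchl1*, at 15, lay within the range of these markers, from 1.39 (*Ncam1*) to 47.6 (*Pkd1l3*), as did *Nefl*, at 2.32. The ends of this range exceeded 36.7% and 94.4% of all rows, so most rows lie within it and it sets neither gene apart. *Ncam1* and *Snap25* are also in the Schwann lineage list and the axon list. The type II genes had a summed RPKM of 310 and 26.3, with *Gnat3* (127 and 0.03) and *Plcb2* (70.0 and 0.12) the highest, while *Itpr3* had 30.1 and 21.9 (ratio 1.37) and so gave most of the Epi sum. Of the 3 type I genes, *Entpd2* (54.8 and 4.53) and *Kcnj1* (13.5 and 0) were higher in the CvP, while *Slc1a3*, a glutamate transporter of glia as well, had 1.04 and 3.82. The part of taste cells in the levels of *Uchl1* and *Nefl* was not tested. In such bulk samples more cells of a type and more RNA per cell cannot be told apart.

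**Figure D3:**
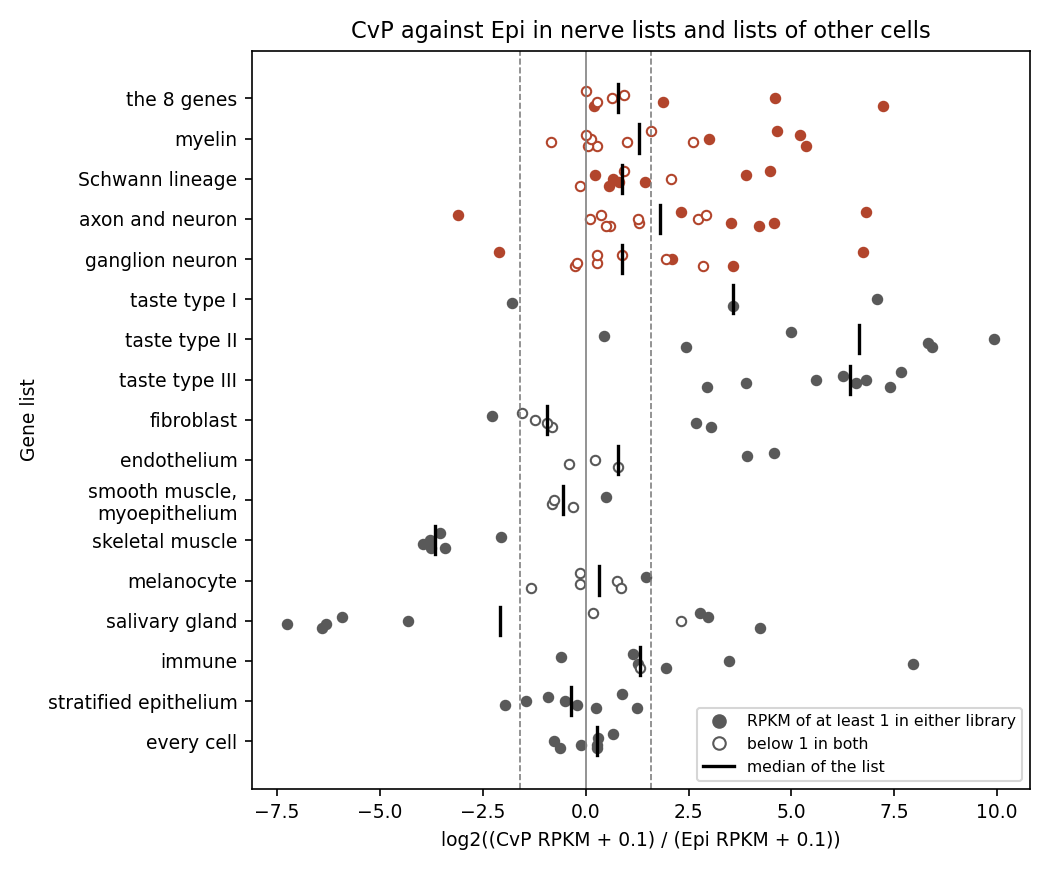
log2((CvP RPKM + 0.1)/(Epi RPKM + 0.1)) of each gene, by list, with nerve lists in red. Filled points reach 1 RPKM in either library and open points are below 1 in both, black bars are list medians, and dashed lines mark a ratio of 3 either way. The type III taste list has its median at 6.42, whereas the medians of the 8 genes and of the 4 nerve lists lie between 0.79 and 1.80. Over filled points alone the medians are 3.24 (the 8 genes), 4.94 (myelin), 0.80 (Schwann lineage), 3.88 (axon) and 2.84 (ganglion), and 6.42 again for type III. Some filled points reach 1 RPKM in the CvP only, so the filter itself favours high ratios among them.

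The tissue around nerves was followed through genes of fibroblasts, vessels and muscle. Of the fibroblast genes, *Col1a1*, *Col1a2*, *Col3a1* and *Lum* were at or below an RPKM of 0.25 in both and *Lum* was listed at 0 in the CvP. *Dcn* was higher in the Epi (26.1 in the CvP against 128 in the Epi). By contrast, *Fbln1* (18.5 and 2.79) and *Pdgfra* (1.30 and 0.07) were more than 3-fold higher in the CvP. The 7 genes summed to 46.1 in the CvP against 131 in the Epi, and *Dcn* gave most of both sums. The endothelial genes *Pecam1*, *Cdh5* and *Kdr* were at or below 0.28, with *Vwf* (4.45 and 0.09) and *Tek* (2.49 and 0.07) higher in the CvP and a sum of 7.28 against 0.36, while *Emcn* was not analysed here. Smooth muscle and myoepithelial genes summed to 2.16 (CvP) and 1.91 (Epi), *Tagln* (1.75 and 1.22) and *Acta2* (0.39 and 0.51) being the highest. Skeletal muscle genes were higher in the Epi, in 6 of 6, with a summed RPKM of 4.27 and 47.9, and *Mylpf* (1.63 and 7.12) and *Acta1* (0.86 and 12.9) among them.

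Other cells that share some of the 8 genes were followed in the same way. Melanocytes make *Sox10*, and their list summed to an RPKM of 2.98 in the CvP against 1.32 in the Epi, of which *Pmel* gave 2.62 and 0.89. *Mitf* had 0.19 and 0.22, and *Dct*, *Tyr*, *Mlana* and *Slc45a2* were at or below 0.20, *Tyr* being listed at 0 in the CvP and *Mlana* and *Slc45a2* at 0 in the Epi, while *Tyrp1* was not analysed here. Of the salivary gland genes, 5 were more than 3-fold higher in the Epi and 3 in the CvP, with a summed RPKM of 67.1 in the CvP against 427 in the Epi. *Slc12a2* (45.3 and 6.47) and *Pigr* (12.0 and 0.54) had the highest CvP levels. *Lipf* (1.96 and 313) and *Amy1* (0.85 and 80.5) had the highest Epi levels and gave most of the Epi sum. *Smr3a*, *Prol1* and *Pip* were not analysed here. The immune genes summed to 181 and 20.5, led by *Lyz2* (132 and 0.43) and *H2-Ab1* (30.5 and 13.6), with *Cd3e* at 0.15 and 0. The part of any of these cells in the values of *Sox10*, *S100b*, *Pmp22* and *Mbp* was not tested.

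Genes of the epithelium itself were abundant in both libraries. *Krt13* had an RPKM of 17549 in the CvP against 47815 in the Epi, *Krt4* had 11801 and 22406, and 7 of the 8 listed epithelial genes were within 3-fold. All 7 genes used in every cell were within 3-fold as well, among them *Eef1a1* (2555 and 2757) and *Rplp0* (577 and 896), and none of the 7 was listed at 0. Genes at such levels cannot show why another row is listed at 0. A value of 0 was listed for 895 rows in the CvP and for 2207 in the Epi. For *Gap43*, and in the Epi for *Uchl1* and *Nefl*, it was read as few or no reads counted, and its cause was not tested.

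The genes with the pattern most like each of the 8, by the distance between log2(RPKM + 0.1) over the 2 libraries, were *Kcnj5* (15 and 0), *Lrrn4* (15.3 and 0) and *Kcnq1* (14.3 and 0) for *Uchl1*. For *Nefl* they were *AI427809*, *Tas2r123* (2.32 and 0 each) and *Gm5607*. *Mbp* lay closest to *Afg3l1*, *Cdc27* and *Wdr5*, and *Pmp22* to *Wdpcp*, *Cyp2j9* and *1110012D08Rik*. *Sox10*, *S100b*, *Prph* and *Gap43* had values identical to those of 3, 10, 216 and 456 other symbols, so no nearest genes were named for them. With 2 libraries such likeness is that of a pair of numbers.

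On NCBI37/mm9, the build of the table, the 8 rows are placed as follows. *Pmp22* lies on chromosome 11 from 62945012 to 62973048, *Sox10* on chromosome 15 from 78985343 to 78994920, *S100b* on chromosome 10 from 75716581 to 75724064, and *Mbp* on chromosome 18 from 82644515 to 82755029. *Uchl1* lies on chromosome 5 from 67067360 to 67078473, *Nefl* on chromosome 14 from 68701941 to 68705794, *Prph* on chromosome 15 from 98885605 to 98889409 and *Gap43* on chromosome 16 from 42248674 to 42340764. *Sox10* and *Gap43* are on the minus strand and the others on the plus strand. In the GENCODE M1 annotation of that build, exons of *Uchl1* and *Nefl* overlap an exon of another gene, and those of the other 6 genes do not.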

How the data were processed

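Per the labels and the methods of the study, poly(A) RNA of pooled mice was made into libraries with a TruSeq kit, sequenced as single-end reads of 75 bp and mapped with Bowtie 0.12.7 to NCBI37/mm9. The authors then obtained RPKM values with ERANGE, and these deposited RPKM values and the listed gene length were used. How ERANGE was set, and how it treated reads with several matches, is not given in the sources used here. A column with the authors' own CvP/Epi ratio was not used.

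The 8 genes and the gene lists were chosen with earlier results of these data known. Some genes of these lists are not reported here and were left out of every list value. Genes named are the 8, the 5 with the highest mean RPKM of each nerve list and those that met the criteria, the 2 with the highest CvP RPKM of every other list, and the 3 nearest patterns; other names, and the families under Other observations, were chosen after their values were seen. Ratios are quotients of RPKM. Reads were estimated from RPKM, depth and a length, taken as the longest coding GENCODE M1 transcript where the table lists a longer one. In rows up to 1 kb listed more than 10% longer than that transcript, the listed length gave reads within 0.15 of a whole number in 91.7% of 12 CvP and 100% of 13 Epi values, against 38.5% and 35.7% with the transcript, so reads of such genes are underestimates and their intervals wide. Intervals and floors cover counting error only. Depth, interval and call steps were tested on simulated data. Python 3.11.15, numpy 2.4.6, pandas 2.3.3, scipy 1.17.1 and matplotlib 3.10.9 were used.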

Additional observations from a re-analysis of the deposited data

How the results depend on the processing

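No paired analysis was possible because only 1 pool was sequenced per tissue and no test was run, and no replicate could be left out. The count of the 8 genes higher in the CvP, 3, was 5 with no minimum RPKM. The 2 genes added were *S100b* and *Prph*, with about 5 reads and 1 read in the CvP. The count meeting the criteria of the study, 1, was 2 when RPKM was rescaled to a common sum and 2 with a minimum CvP RPKM of 3. The share of all rows that pass is not given for these settings, so these counts show only how the calls depend on them. The median log2 ratio of the 8 genes, 0.79, was 0.17 and 1.79 with pseudocounts of 1 and 0.01 and 1.39 when rescaled. Divided by the median ratio, *Mbp* was at 0.877, *Uchl1* at 122 and *Nefl* at 44.2, and rescaled *Mbp* was at 1.39. A pseudocount of 0.1 lowered *Nefl* to 24.2. A pseudocount of 1 lowered *Pmp22* to 2.44, *Uchl1* to 16 and *Nefl* to 3.32. With no minimum RPKM the genes higher in the CvP were 7 of the myelin list, 4 of the Schwann lineage, 12 of the axon list and 8 of the ganglion list. In each of these lists 1 gene was then higher in the Epi. Some of the added genes, such as *Mag*, *Stmn2* and *Slc18a3*, had 1 or 2 reads in the CvP. Rescaled, the genes higher in the CvP were 5 of the ganglion list, and with a pseudocount of 1 they were 3 of the axon list and 1 of the Schwann lineage. The share of all rows is not given for these settings either. With the listed gene length, *Mbp* had 4204 and 3592 estimated reads in place of 1401 and 1197. The other 56 alternatives left a ratio within its counting interval, or moved a count by 1.5 times or less or a median by less than 0.5. With few reads, *Sox10*, *S100b*, *Prph* and *Gap43* carry no comparison between the tissues.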

Other observations

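The closest relatives of the 8 genes, chosen after their values were seen, lay on both sides of them in level. In the family of *Pmp22*, the epithelial membrane proteins *Emp1* and *Emp2* had an RPKM of 875 and 187 in the CvP and 146 and 170 in the Epi, against 3.68 and 0.92 for *Pmp22*, while *Emp3* (0.91 and 0.15) and *Lim2* (0.17 and 0.13) were lower. Among S100 proteins, *S100a6* had 341 in the CvP against 95 in the Epi and *S100a11* had 533 and 292, where *S100b* had 0.13 and 0.02. *S100a10* had 152 and 46.9, *S100a1* had 19.6 and 5.07, and *S100a4* had 3.88 and 5.1. Among SoxE factors, *Sox9*, known from epithelial and cartilage progenitors, had 3.46 and 0.74 (ratio 4.68, 95% interval 3.71 to 6.01), and *Sox8* had 0.25 and 0, where *Sox10* had 0.18 and 0.08.

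*Basp1*, a membrane protein of growth cones that resembles Gap43 in its properties, had an RPKM of 48.3 in the CvP against 0.25 in the Epi (ratio 193, interval 112 to 360), while *Gap43* itself was listed at 0 in both. The related *Marcks* and *Marcksl1* had 51.5 and 28.9 in the CvP, with ratios of 4.33 and 4.24. The ubiquitin hydrolases *Uchl3* and *Uchl5* were higher in the Epi, with ratios of 0.641 and 0.790, in contrast to *Uchl1*, and *Uchl5* (13.2 in the CvP) and *Bap1* (9.05) were below it in level. *Vim*, the vimentin gene of mesenchymal and Schwann cells, had 3.99 in the CvP against 2.79 in the Epi. Of the other vimentin-type filament genes, *Des* was higher in the Epi (0.12 in the CvP against 2.25). *Nes* (0.2 and 0.05) and *Sync* (0.31 and 0.04) were higher in the CvP.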
